A study of Mus musculus with 6 samples.

Results

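Transport kinesins are motor proteins that carry cargo along microtubules, and 10 of their genes were followed in newborn lenses of Pax6 heterozygous and wild type mice. The genes were chosen by name as a family (Kif1a, Kif1b, Kif3a, Kif3b, Kif5a, Kif5b, Kif5c, Kif13a, Kif21a and Klc1), and every probe set annotated to one of these genes alone was taken. This gave 10 of 12393 genes and 29 of the 22626 probe sets tested, 7 of them for Kif1b. One of the 29, Kif1b probe set 1423994_at, belongs to the genes that the study listed as changed in these same samples, so its difference is not independent evidence. The members were chosen with earlier results of these data known.

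RNA was measured on Affymetrix arrays in 3 Pax6 heterozygous mice (Pax6lacZ/+, in which the lacZ reporter replaces 1 copy of this transcription factor gene) and in 3 wild type mice of the NMRI background, all 1 day old, with the lenses of a mouse joined in a sample. The sources used here do not give the sex of the pups, or the background of the heterozygous pups used for the arrays. A sample is a whole lens, epithelium and fibers together, with whatever neighboring tissue came along, so fewer cells of a type and less RNA per cell cannot be told apart. Values are signal intensities on a linear scale that the authors normalized by RMA, which joins the probes of a probe set into 1 value. Because each probe set has its own probes, signals were not set against each other between probe sets as amounts. Differences are given as heterozygous less wild type in log2 units, and p-values measure the spread between these mice.

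A kinesin has a motor domain that binds microtubules and splits ATP, and most transport kinesins walk toward the plus end, away from the cell center. Kinesin-1 is built from heavy chains (Kif5a, Kif5b, Kif5c) and light chains such as Klc1, which help to bind cargo. Kinesin-2 pairs Kif3a with Kif3b and is the motor that builds cilia, while the kinesin-3 motors (Kif1a, Kif1b, Kif13a) carry vesicles and mitochondria. Lens fiber cells grow very long during differentiation and hold microtubules along their length.

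The targeted gene was read first. The brightest Pax6 probe set read 942, 1170.1 and 882 in heterozygous replicates 1 to 3 and 1169, 1760.1 and 963 in wild type replicates 1 to 3. The heterozygous value was the lower of each same-numbered pair, but the genotypes overlapped (log2 difference −0.34, two-sided exact permutation p = 0.3, where 0.1 is the smallest p that 3 against 3 can give). That permutation takes no account of the replicate numbers, and limma with the replicate number as a block gave an unadjusted p of 0.0315 and an adjusted p of 0.509. The 5 Pax6 probe sets did not all run one way. Probe set 1452526_a_at was lower in heterozygous lenses in every pair (−0.69, adjusted p = 0.246 with the block), as was 1425960_s_at (−0.48), while 1437816_at was higher in every pair (0.19) and 1456342_at was near background (−0.11). Lens fiber markers were bright on every array, with a summed signal over 8 genes of 63908 to 73769 in heterozygous and 65317 to 76193 in wild type lenses. Crystallins carry most of that sum, and 6 of the 8 markers had a difference below 0. Crybb1, Cryba1, Cryba4, Crygs, Mip and Bfsp1 lay near 0, from −0.09 for Mip to 0.05 for Crygs. Gja3 stood at −0.56. Dnase2b, the nuclease that clears DNA from fiber nuclei, read 557, 639 and 466 in heterozygous and 732, 971 and 677 in wild type lenses, with no overlap (−0.51, adjusted p = 1.00, and 0.301 with the block). The part of these fiber markers in the kinesin values was not tested. The array has no true zero. As a guide to background, 33 olfactory receptor probe sets, chosen with earlier results known, had a median of 10.2 and a highest median of 13.4. Samples with the same replicate number deviated together from their genotype means (correlations of 0.604 to 0.734 over all probe sets, against −0.496 to −0.0751 between different numbers). The deviations of a genotype sum to 0, so high values for the same numbers push the others below 0. A second fit that takes the replicate number as a block is therefore given where it matters.

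One array stood apart in sex-linked genes. Xist, the RNA of the inactive X chromosome, read 11.6, 9.42 and 18.7 in heterozygous lenses and 709, 16.2 and 16.2 in wild type lenses. The Y-linked Eif2s3y read 797, 1049 and 696 in heterozygous lenses and 20.5, 1242 and 999.9 in wild type lenses. Wild type replicate 1 thus read as female and the other 5 arrays as male. Without that array, the difference was −0.42 for Kif1b 1423994_at, −0.27 for Kif1b 1451200_at, −0.40 for Kif3b 1450074_at, −0.46 for Kif21a and −0.46 for Kif5c 1422945_a_at, each with the same sign as over all arrays. As over all arrays, 1 member probe set then had an unadjusted p under 0.05.

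Kif1b encodes a kinesin-3 motor that carries mitochondria and, in another splice form, precursors of synaptic vesicles. Its probe set 1423994_at read 350.1, 393 and 427 in heterozygous lenses, against 438, 501 and 539.7 in wild type lenses. All 3 heterozygous values lay below all 3 wild type values. The mean in heterozygous lenses was 79.2% of that in wild type lenses (390.2 ± 38.6 and 493 ± 51.2, SD, n = 3 mice each). The log2 difference was −0.34 ± 0.14 (standard error), with a 95% interval of −0.67 to −0.0043, and the same-numbered pairs differed by −0.32, −0.35 and −0.34. With limma the unadjusted p was 0.0478 and the adjusted p 1.00 over all probe sets, so the difference did not pass the adjusted threshold of 0.05. With the replicate block the unadjusted p was 0.0121 and the adjusted p 0.437. The unadjusted p ranged from 0.0352 to 0.143 when any 1 array was left out, and was above 0.05 in 4 of these 6 fits.

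The brightest Kif1b probe set, 1451200_at, also read lower in heterozygous lenses in every pair. It read 446, 504 and 579 in heterozygous lenses and 518, 576 and 649.6 in wild type lenses. The genotypes overlapped here, since the highest heterozygous value (replicate 3) exceeded the lowest wild type values, and the difference of −0.19 ± 0.15 had an unadjusted p of 0.250. According to the annotation, 1451200_at, 1423994_at and the dim 1423995_at were designed from the same sequence record, so the 2 bright ones are not independent readings of the gene.

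The other Kif1b probe sets did not share this pattern. Probe set 1455182_at read 148, 107 and 161 in heterozygous lenses and 170.2, 85.7 and 149 in wild type lenses, with replicate 2 the lowest of both genotypes. Probe set 1425270_at read 76.7, 60.5 and 98.4 in heterozygous lenses and 65.2, 54.3 and 105 in wild type lenses, and here replicate 3 was the highest of both. Their differences were 0.08 ± 0.29 and 0.10 ± 0.29, with intervals of −0.63 to 0.78 and −0.60 to 0.80 that also hold the −0.34 of 1423994_at. The 3 remaining probe sets were dim. Probe set 1423995_at read 17.3, 28.6 and 44.1 in heterozygous and 25.0, 29.9 and 32.1 in wild type lenses, 1451762_a_at read 10.8 to 17.0 and 10.2 to 18.4, and 1451642_at read 9.87 to 10.02 and 8.58 to 10.1, close to the background guide. In all, 4 Kif1b probe sets had a difference below 0 and 3 above it.

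Within each array, 1423994_at was set against the mean log2 signal of the other 6 Kif1b probe sets. Since the study had listed 1423994_at as changed in these arrays, this is a description with no test, and 2 of the other 6 probe sets were at about background. This measure was 2.90, 3.08 and 2.74 in heterozygous lenses and 3.18, 3.34 and 3.18 in wild type lenses. The genotypes did not overlap, and their means differed by −0.33. Against the brightest probe set alone the difference was −0.15, again with no overlap. Against 1455182_at it was −0.41, and there the genotypes overlapped, with 1.24, 1.88 and 1.41 in heterozygous and 1.36, 2.55 and 1.85 in wild type lenses.

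Promoter sequences are shown for the 4 genes that had a probe set with an unadjusted p under 0.05 in the fit with the replicate block, all of them lower in heterozygous lenses. They come from RefSeq on build GRCm38.p6, from 250 bases before to 50 bases after the annotated start, 5′ to 3′ on the strand of the gene, and for Kif1b 1 of 2 overlapping windows is printed. Capitals mark the GC box GGGCGG and the CCAAT box, on either strand. Kif5c is among the 4 through 1450804_at, whose median signal of 11.3 lay below the highest value of the background guide (13.4).

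Kif1b promoter, chr4:149307684-149307983, - strand: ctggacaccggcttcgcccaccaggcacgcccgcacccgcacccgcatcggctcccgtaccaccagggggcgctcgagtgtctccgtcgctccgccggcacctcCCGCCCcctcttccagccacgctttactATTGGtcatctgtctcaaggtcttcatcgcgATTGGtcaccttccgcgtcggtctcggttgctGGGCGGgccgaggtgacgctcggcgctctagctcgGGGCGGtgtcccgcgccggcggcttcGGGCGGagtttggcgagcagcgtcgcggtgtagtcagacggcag

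Kif5c promoter, chr2:49619036-49619335, + strand: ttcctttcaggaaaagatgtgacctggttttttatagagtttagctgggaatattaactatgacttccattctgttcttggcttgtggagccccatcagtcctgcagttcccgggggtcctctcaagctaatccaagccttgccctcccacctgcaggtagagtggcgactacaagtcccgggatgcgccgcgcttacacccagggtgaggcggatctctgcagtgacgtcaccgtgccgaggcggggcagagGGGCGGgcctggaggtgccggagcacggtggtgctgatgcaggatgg

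Kif3b promoter, chr2:153291166-153291465, + strand: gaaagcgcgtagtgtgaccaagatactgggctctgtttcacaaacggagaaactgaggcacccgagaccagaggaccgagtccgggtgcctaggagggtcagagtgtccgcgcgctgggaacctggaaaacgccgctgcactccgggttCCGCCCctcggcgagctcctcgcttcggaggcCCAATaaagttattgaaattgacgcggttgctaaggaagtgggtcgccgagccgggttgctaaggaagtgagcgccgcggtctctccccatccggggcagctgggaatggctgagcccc

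Kif21a promoter, chr15:91049902-91050201, - strand: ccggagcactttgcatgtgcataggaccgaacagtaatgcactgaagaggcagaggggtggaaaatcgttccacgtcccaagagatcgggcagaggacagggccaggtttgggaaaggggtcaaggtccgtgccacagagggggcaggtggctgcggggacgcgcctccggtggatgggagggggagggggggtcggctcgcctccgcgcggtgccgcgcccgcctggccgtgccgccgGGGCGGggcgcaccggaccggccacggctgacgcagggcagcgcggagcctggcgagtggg

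The Kif1b window holds 4 GC boxes and 2 CCAAT boxes, the Kif3b window 1 and 1, and the Kif5c and Kif21a windows 1 GC box and 0 CCAAT boxes. Over all 32851 promoter windows of the same length, 35.7% hold a GC box and 37.4% a CCAAT box. Of the 10 windows found for member genes, 8 hold a GC box and 4 a CCAAT box. The 4 windows have 40, 14, 26 and 30 CpG sites in the order Kif1b, Kif5c, Kif3b and Kif21a, where the median over all windows is 7. Windows of other members have 62 (Kif13a), 37 (Klc1), 18 (Kif3a), and 24 and 1 (Kif1a). High counts were thus not particular to the 4 genes. The letters TTCACGC, a core of the site that the Pax6 paired domain binds, occur on either strand in 1.26% of all windows and in 0 of the 10 windows found for 8 member genes. The homeodomain core TAAT occurs in 58.0% of all windows and in 5 of those 10. These counts describe letters in a short window and say nothing of binding.

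The other kinesin-3 genes were read by fewer probe sets. Kif1a, a motor of synaptic vesicle precursors in neurons, read 126, 192 and 191 in heterozygous and 145, 268 and 149 in wild type lenses at its brighter probe set (−0.11 ± 0.29). The genotypes overlapped widely, with wild type replicate 2 the highest. Its second probe set lay near background (13.4 to 15.2 and 12.2 to 15.1) and was slightly higher in heterozygous lenses in each pair. Kif13a, which moves endosomal vesicles, read 20.3, 30.8 and 22.0 in heterozygous lenses and 21.0, 32.1 and 23.4 in wild type lenses. Each heterozygous value was just below its same-numbered partner (−0.06 ± 0.23), and replicate 2 was the highest of both genotypes.

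Kif5b, the kinesin-1 heavy chain that most cell types use, had the brightest probe set of the 29 and showed little difference between genotypes there. Probe set 1418428_at read 814, 1026 and 1014 in heterozygous lenses, against 836, 1012 and 1055 in wild type lenses (−0.03 ± 0.15, 95% interval −0.40 to 0.35). Both genotypes were lowest in replicate 1. The other 4 Kif5b probe sets, designed from the same sequence record, differed by −0.17 to 0.10 between genotypes, 3 of them above 0. They varied more between replicate numbers than between genotypes. Probe set 1418427_at read 127, 83.5 and 219 in heterozygous and 124, 76.0 and 203 in wild type lenses, a 2.88-fold range over the 6 arrays, while 1418428_at had a 1.30-fold range. Probe set 1418429_at read 134, 169 and 253 in heterozygous and 149, 177 and 309 in wild type lenses, and 1418430_at read 433, 374 and 671 in heterozygous and 426, 355 and 578 in wild type lenses. All 3 were highest in replicate 3 of both genotypes. Probe set 1418431_at read 204 to 296 in heterozygous and 208 to 273 in wild type lenses.

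Kif5c, a heavy chain used mostly in neurons, read lower in heterozygous lenses at both of its probe sets, which share a sequence record. Probe set 1422945_a_at read 54.5, 51.9 and 52.6 in heterozygous lenses, against 69.0, 51.9 and 102 in wild type lenses. The heterozygous arrays were close together, and the wild type arrays were spread, with replicate 2 at the heterozygous level. The difference was −0.43 ± 0.24, and −0.18 without wild type replicate 3. Probe set 1450804_at, near background, read 8.67, 9.29 and 11.8 in heterozygous and 12.5, 10.9 and 13.1 in wild type lenses (−0.31 ± 0.16, unadjusted p = 0.0970, and 0.0379 with the block, where the adjusted p was 0.528).

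Kif5a, another neuronal heavy chain, was at background in lens. Its probe sets read 9.50 to 10.4 in heterozygous and 9.54 to 11.7 in wild type lenses, and 7.79 to 9.25 and 7.33 to 9.83. No genotype difference can be read at that level. Klc1, the light chain, read 135, 99.0 and 119 in heterozygous lenses and 119.7, 127 and 113 in wild type lenses at its brightest probe set (−0.04 ± 0.15, 95% interval −0.40 to 0.32). Its second probe set read 91.7, 118 and 78.3 in heterozygous and 86.4, 127 and 87.3 in wild type lenses, highest in replicate 2 of both genotypes. The dimmest one read 19.6, 38.1 and 27.4 in heterozygous and 31.5, 44.6 and 27.1 in wild type lenses (−0.30 ± 0.29). All 3 Klc1 differences were below 0 and each interval held 0.

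Kif3a and Kif3b are the paired motor subunits of kinesin-2. Kif3a read 371, 472 and 351 in heterozygous and 344, 525 and 359 in wild type lenses at its brighter probe set (−0.02 ± 0.21), and 184, 304 and 258 against 206, 297 and 201 at the other (0.07 ± 0.24). Replicate 2 was the highest in both genotypes at both probe sets, and the genotypes overlapped. Kif3b read 46.6, 34.8 and 74.7 in heterozygous lenses, against 80.6, 57.8 and 73.2 in wild type lenses, at its brightest probe set. Replicates 1 and 2 were lower in heterozygous lenses and replicate 3 was level, so that the pairs differed by −0.79, −0.73 and 0.03. The mean difference of −0.50 ± 0.29 was the largest in size of the 29. Its unadjusted p was 0.137, and 0.0329 with the block (adjusted p = 0.510).

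The other Kif3b probe sets, all from the same sequence record, were dim. Probe set 1450073_at read 13.9, 14.7 and 14.7 in heterozygous and 16.5, 20.0 and 15.9 in wild type lenses, with no overlap (−0.27 ± 0.13, unadjusted p = 0.0843). Probe set 1420986_s_at read 15.7, 28.3 and 27.2 in heterozygous and 21.2, 21.5 and 18.5 in wild type lenses (0.17 ± 0.24), and 1420987_at read 9.94 to 12.9 and 11.1 to 11.6. Of the 4 Kif3b differences, 3 were below 0 and 1 was above. Kifap3, the subunit that joins Kif3a and Kif3b to cargo, read 2299.9 ± 414 in heterozygous and 2116 ± 351 in wild type lenses (SD, n = 3 mice each).

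Kif21a, a kinesin-4 motor of developing neurons whose human mutations cause a disorder of the eye muscles, read 101, 169 and 124 in heterozygous and 132, 231 and 136 in wild type lenses. The heterozygous value was lower in each pair (−0.39, −0.45 and −0.13), yet the genotypes overlapped because replicate 2 was high in both. The difference was −0.32 ± 0.28 with an unadjusted p of 0.300. With the block the unadjusted p was 0.0277 and the adjusted p 0.499.

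**Figure D1:**
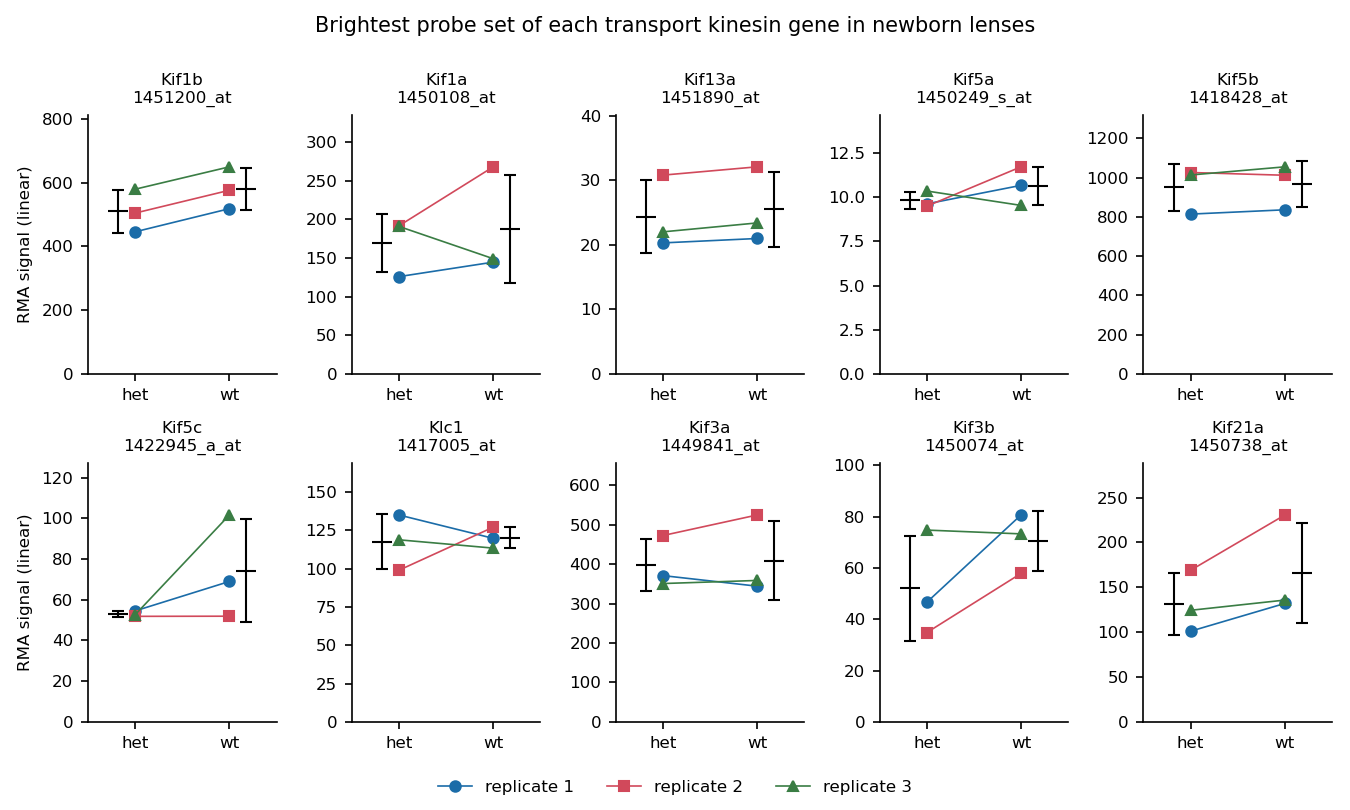
Signal of the brightest probe set of each of the 10 genes (vertical axes, linear RMA signal from 0; het, Pax6 heterozygous; wt, wild type), with lines joining the same replicate number and black bars for the mean and SD of 3 mice. Kif1b, Kif5c, Kif13a and Kif21a have the lower value in heterozygous lenses in 3 of 3 pairs, and several genes, Kif3a, Kif13a and Kif21a among them, are highest in replicate 2 of both genotypes.

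No transport kinesin probe set passed the adjusted threshold in limma (0 of 29, against 0 of 22626 probe sets, or 0%). At an unadjusted p under 0.05, limma gave 450 of all probe sets (1.99%). Of the members, 1 of 29 had an unadjusted p under 0.05 and was lower in heterozygous lenses, where 1.01% of all probe sets did so. Below 0.10 there were 3 of 29, all lower, against 2.44% of all. The methods' t-test at their threshold of 0.10 gave 2 of 29, both lower, against 3.45%, and 0 of 22626 after Benjamini-Hochberg adjustment. The 2 are Kif1b 1423994_at, which the study had already listed, and Kif3b 1450073_at. With the replicate block, 0 of 29 passed the adjusted threshold, against 2 of all probe sets (0.00884%). There 4 of 29 had an unadjusted p under 0.05 and lay lower in heterozygous lenses, against 4.59% of all, and 0 of 29 lay higher, against 4.43%. These are the probe sets 1423994_at of Kif1b, 1450804_at of Kif5c, 1450074_at of Kif3b and 1450738_at of Kif21a. That of Kif5c had a median signal of 11.3, below the highest value of the background guide (13.4). No genotype difference can be read at that level. The brighter Kif5c probe set had an unadjusted p of 0.0612 with the block.

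Values of the genotypes did not overlap in 2 of 29 member probe sets, both lower in heterozygous lenses, against 3.53% of all probe sets, and in 0 of 29 in the higher direction, against 2.65%. The heterozygous value was lower in 3 of 3 pairs in 8 of 29 probe sets (17.1% of all) and higher in 3 of 3 pairs in 3 of 29 (13.9% of all). Taken at the brightest probe set, all 10 genes had a difference below 0, Kif5a at background among them, with a median of −0.11, where the median of all 12393 genes was −0.01 and 53.0% of them lay below 0. Many of the 10 differences are close to 0. Those of Kif5b, Kif1a, Kif13a, Klc1 and Kif3a changed sign when 1 array was left out, and those of Klc1 and Kif3a also with array weights. Over the 29 probe sets, 19 lay below 0 with a median of −0.06, where 53.5% of all 22626 did, with a median of −0.01. Several of the 29 share a sequence record, so they are not separate readings. Of the 17 with a median signal of at least 50, 11 lay below 0.

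**Figure D2:**
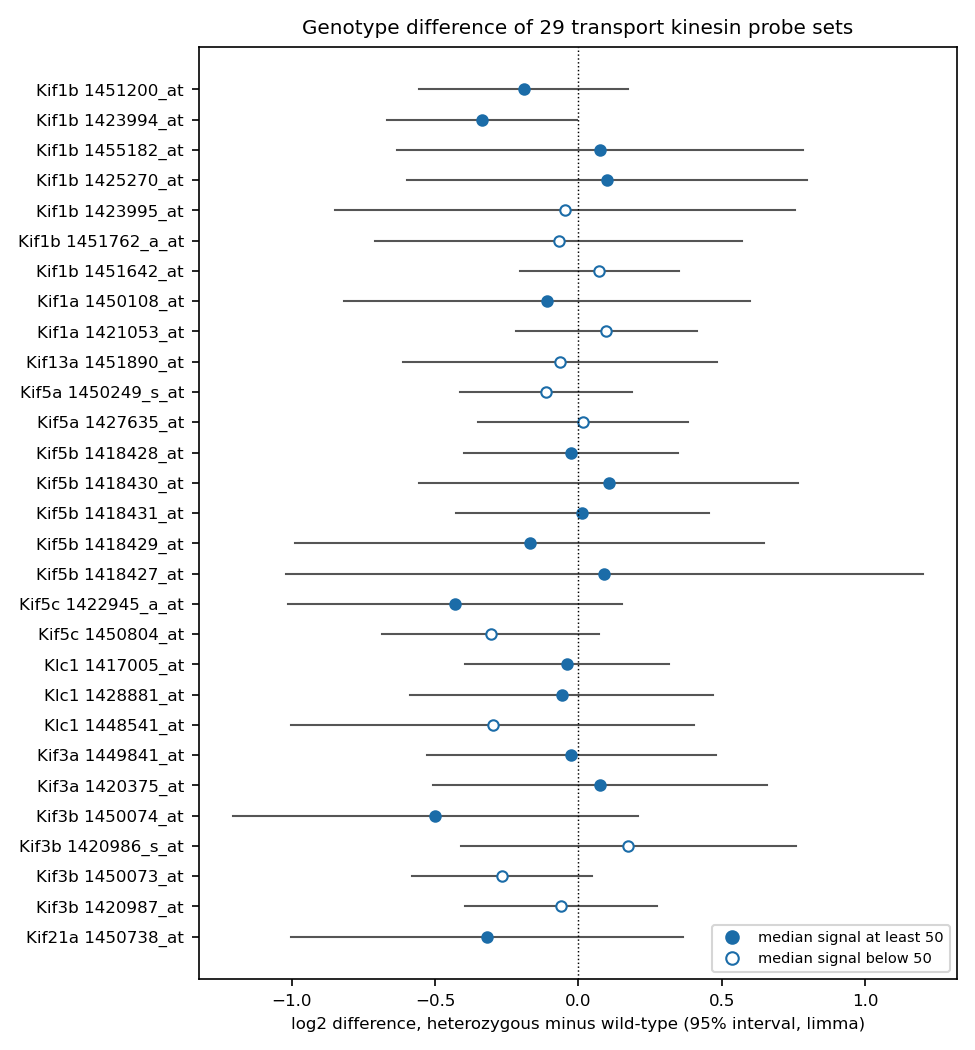
Log2 difference between Pax6 heterozygous and wild type lenses for the 29 probe sets (horizontal axis, heterozygous minus wild type; points, limma estimates; lines, 95% intervals; filled points, median signal of at least 50). Intervals are from the fit on genotype alone, without the replicate block. Only that of Kif1b 1423994_at lies wholly below 0, ending at −0.0043.

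Members varied with the replicate number about as often as all probe sets did. The range of the 3 replicate means, each over both genotypes, exceeded the genotype difference in 25 of 29 probe sets, where 87.3% of all probe sets did so, and a range over 3 means tends to exceed a difference of 2. An F test of the replicate number, added after the values were seen, passed the adjusted threshold in 7 of 29, against 19.4% of all. These were 3 Kif5b probe sets, which share a sequence record and are not independent readings, 2 Kif1b probe sets, Kif13a and Kif21a. Their patterns were not alike. Kif13a and Kif21a were highest in replicate 2, with means 0.36 and 0.46 above the probe set's own mean on the log2 scale. In contrast, Kif5b 1418427_at was lowest in replicate 2 (−0.69) and highest in replicate 3 (0.72), and Kif1b 1425270_at ran the same way (−0.38 and 0.45). What the replicate numbers share is not given in the sources used here.

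Markers moved with the replicate number as well. Gja3, a fiber connexin, read 183, 583 and 279 in heterozygous and 291, 813 and 404 in wild type lenses, highest in replicate 2 like Kif21a and Kif13a. It was lower in heterozygous lenses in each pair, but the genotypes overlapped (−0.56 ± 0.52, unadjusted p = 0.323 in limma on genotype alone). With the block the unadjusted p was 0.00141 and the adjusted p 0.285. Of the other fiber markers measured, Mip and Cryba1 were highest in replicate 3 of both genotypes, and the rest in replicate 2 of both. All 9 endothelium markers were measured and lay above 0, with a median of 0.45, where 53.0% of all genes lay below 0. With the block, 4 of the 9 were higher at an unadjusted p under 0.05, against 4.43% of all probe sets. After adjustment 0 passed there. The 9 summed to 3548, 1096 and 1062 in heterozygous replicates 1 to 3 and to 1938, 861 and 806 in wild type replicates 1 to 3. Flt1 alone read 1854 in heterozygous and 914 in wild type replicate 1. Replicate 1 had the highest sum in both genotypes. Pigment cell markers (4 measured, 3 above 0) ran likewise, at 1329, 550.3 and 651 in heterozygous and 1291, 571 and 514 in wild type lenses. The part of these markers in the kinesin values was not tested.

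**Figure D3:**
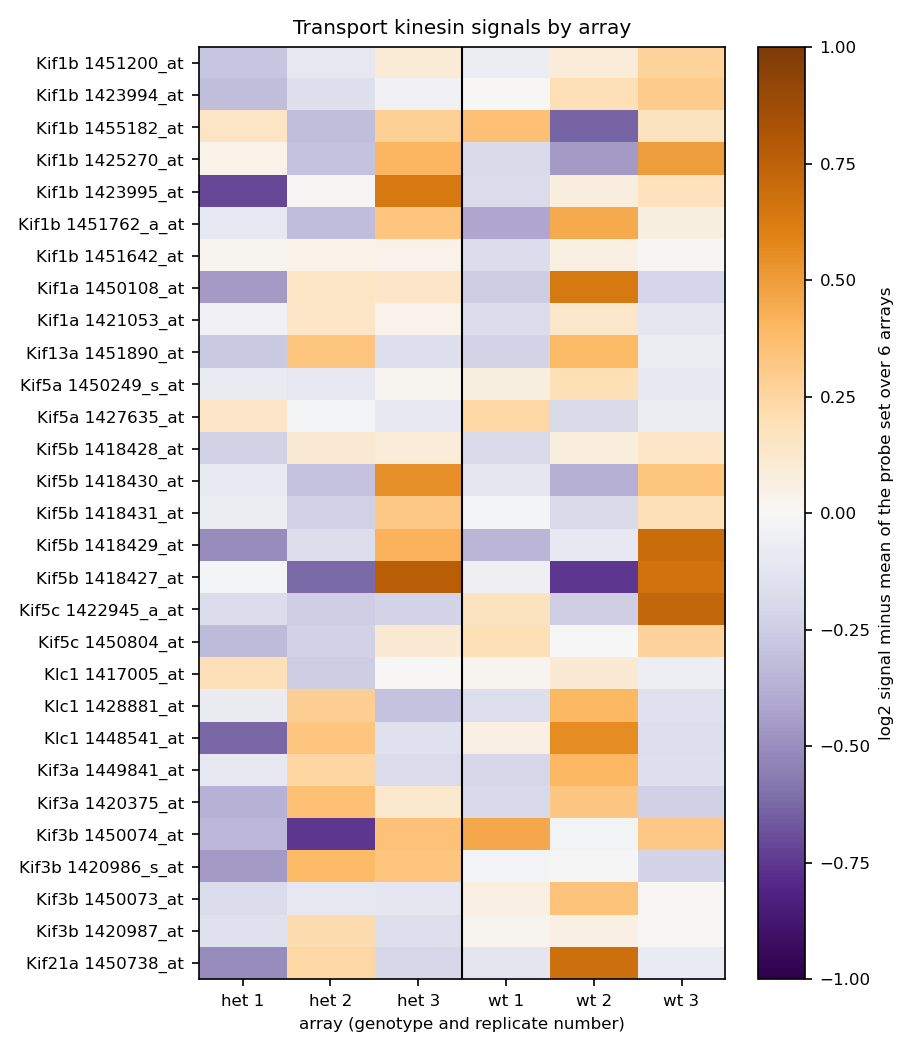
Log2 signal of each of the 29 probe sets in each array, relative to its own mean over the 6 arrays (colors; het, Pax6 heterozygous arrays 1 to 3; wt, wild type arrays 1 to 3). Same-numbered columns resemble each other across the black line, as for Kif5b 1418427_at, low in both arrays 2 and high in both arrays 3.

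Several members are best known from neurons, so neuron and retina markers were read beside them. Of 15 measured markers, 13 lay above 0 and 2 below, with a median of 0.31, where 53.0% of all genes lay below 0. After adjustment 0 of the 15 passed. At an unadjusted p under 0.05, 2 were higher and 1 was lower, where 1.99% of all probe sets passed in either direction. Only 7 of the 15 had a median signal of at least 50. Stmn3 was higher, with 346, 428 and 386 in heterozygous and 283, 171 and 234 in wild type lenses (0.78). Otx2 was higher too, with 442, 411 and 185 in heterozygous and 194, 156 and 156 in wild type lenses (0.94). Elavl4, an RNA-binding protein of neurons, was lower, with 50.4, 54.1 and 47.5 in heterozygous and 68.6, 80.1 and 66.6 in wild type lenses. Over the list, the summed signal was 1193 to 1741 in heterozygous and 907 to 1126 in wild type lenses. Stmn3, Otx2 and Snap25 carry most of that sum. Among the neuronal motors above background, Kif1a stood at −0.11, Kif5c at −0.43 and Kif21a at −0.32 at their brightest probe sets, and Kif1a at 0.18 without wild type replicate 2. The motors were not tested against the markers. Some defining markers of the list were near the background guide in the median of 6 arrays, with Syt1 at 10.7, Map2 at 11.3 and Rcvrn at 10.04. Their part in the kinesin values was not tested. Macrophage markers (10 measured, 9 above 0) summed to 244 to 1306 in heterozygous and 379 to 1103 in wild type lenses, and mesenchyme markers (7 measured, 1 above 0) to 539.8 to 967 and 734 to 1150.3. The 6 lens epithelium markers, 2 above 0, summed to 19717 to 22979 and 21000.1 to 22966, and the 2 red blood cell genes measured to 23.3 to 34.7 and 24.6 to 33.0.

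Other genes of the microtubule system were read from lists written for this purpose, each gene at its brightest probe set. None of them passed the adjusted threshold. Of the kinesin-1 genes, 0 of 6 measured were above 0, with Klc3, a light chain, at 11.2 ± 1.36 and 12.7 ± 0.328 in heterozygous and wild type lenses (SD, n = 3 mice each). Of 5 kinesin-2 genes 2 were above 0, both outside the members (Kif3c and Kifap3), and Kif17 stood near background. Of 5 kinesin-3 genes 2 were above 0, and Kif16b, a motor of early endosomes, read 269 ± 53.6 in heterozygous and 209 ± 15.8 in wild type lenses (0.34 ± 0.17, unadjusted p = 0.0900). Kif3c is named here, and Kif21b next, because the counts are small, after their values were seen. The kinesin-4 list had 3 genes, with Kif21b at 0.32 and Kif4 at 0.44 against the −0.32 of Kif21a. Median signals of Kif21b and Kif4 were 12.9 and 12.4, below the highest value of the background guide (13.4). No genotype difference can be read at that level. Among 4 other transport and ciliary kinesins 3 lay above 0, none with a median signal of at least 50, from −0.18 for Kifc3 to 0.20 for Kifc2. Kif2a, which takes microtubules apart, read 851 ± 108 and 916 ± 79.3.

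The cargo side and the minus-end motor had members on both sides of 0. Of 19 dynein and dynactin genes, 8 were above 0 and 11 below, with a median of −0.03. Dync1li1, a dynein light intermediate chain, read 76.2 ± 10.6 in heterozygous and 96.3 ± 20.7 in wild type lenses, and Nde1, a dynein regulator, 159 ± 56.9 and 119.8 ± 70.5. Of 23 cargo adaptors and partners, 10 were above 0 and 13 below, with a median of −0.03. Grip1, an adaptor that links glutamate receptors to kinesin-1, read 119 ± 15.9 and 148 ± 16.4 (−0.31 ± 0.15, unadjusted p = 0.0843), and Hap1, a partner of huntingtin, 15.0 ± 1.26 and 13.1 ± 0.910. Trak1, which links kinesin-1 to mitochondria, read 1405, 1042 and 1497 in heterozygous and 1697, 1446 and 1692 in wild type lenses (−0.31), lower in each pair, and is named after its values were seen. Of 12 tubulins, 8 were above 0 and 4 below, with a median of 0.10. Tubb4a, a beta tubulin, read 81.2, 94.6 and 102 in heterozygous lenses, against 117, 141 and 126 in wild type lenses, with no overlap (−0.47 ± 0.14, unadjusted p = 0.0144), while Tubb6 read 648 ± 13.5 and 551 ± 86.2.

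Mitotic kinesins, which move chromosomes and spindles rather than cargo, lay on the other side of 0. Of 9 measured, 8 were above 0 and 1, Cenpe, was below, with a median of 0.36 against the −0.11 of the transport kinesins. The difference between the lists was not tested. Kif4 read 16.4, 13.6 and 13.1 in heterozygous lenses, against 11.7, 8.63 and 11.5 in wild type lenses (0.44 ± 0.17, unadjusted p = 0.0376). All 9 were dim, with a median signal under 50 over the arrays, and Kif4, at a median of 12.4, was at the level of the background guide. With the replicate block, 4 of the 9, Kif4 among them, were higher at an unadjusted p under 0.05, against 4.43% of all probe sets. After adjustment 0 of the 9 passed there. Markers of dividing cells lay above 0 in 10 of 10 measured. Of these, 2 had an unadjusted p under 0.05 in limma, where 1.99% of all probe sets did in either direction, and 0 passed after adjustment. With the replicate block, 8 of these 10 markers were higher at an unadjusted p under 0.05, against 4.43% of all probe sets, and 0 passed after adjustment. Their median was 0.83 at the brightest probe sets and 0.38 with each gene as the mean over its probe sets, with a summed signal of 973 to 1996 in heterozygous and 474 to 1325 in wild type lenses. Their part in the values of the mitotic kinesins was not tested.

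Genes with a pattern like that of Kif1b were sought among 6384 probe sets with a median signal of at least 100, by the root mean square difference over the 6 arrays after each was centered on its own mean log2 signal. Nearest to the brightest Kif1b probe set was Rnf145, a ubiquitin ligase, at 0.0285, with 968, 1049 and 1199 in heterozygous and 1060.1, 1226 and 1353 in wild type lenses. Next were Agtpbp1, which trims glutamates from tubulin tails, at 0.0399, Dpp8 at 0.0423, Btg1 at 0.0441 and Eif4g2 at 0.0457. All 5 read lower in heterozygous lenses, by 0.13 to 0.27 on the log2 scale. They were picked for closeness to a probe set that itself read lower (−0.19), so this direction follows from the choice. The other bright Kif1b probe set, 1423994_at, stood at 0.0805. With 6 arrays and 6384 candidates such closeness is a description only.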

How the data were processed

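Lens RNA of 3 Pax6 heterozygous and 3 wild type newborn mice was labelled by the NuGEN Ovation method and hybridized to Affymetrix arrays. The authors deposited signal intensities on a linear scale after RMA; the software version is not given in the sources used here. The methods name the 430 2.0 array, while the deposited table holds 22690 probe sets. After 64 control probe sets were left out, 22626 were tested, of which 20380 had 1 gene, 691 several and 1555 none in the platform annotation; 20351 were matched to RefSeq by Entrez number.

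The values were taken to log2 and fitted with limma 3.58.1 in R 4.3.3 (lmFit and eBayes, genotype alone), with Benjamini-Hochberg adjustment over all probe sets and a threshold of 0.05. The procedure was tested on simulated data. Array medians were 21.4 to 22.8, and the 6 arrays limit the precision. Deviations from the genotype means correlated over all probe sets at 0.645, 0.734 and 0.604 between arrays of the same replicate number, each above the bound of 0.1, so the numbers were taken as pairs; the pairing comes from the numbers in the labels, and what they share is not given. Alternatives were the methods' t-test, quantile normalization, median centring, filters on dim probe sets, a trended robust prior, array weights, an offset of 16, the replicate block and leaving out each array. An F test of the replicate number was chosen after seeing the data.

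The members and lists were chosen with earlier results of these data known. Named genes were every member, Pax6, the gene with the smallest unadjusted p in each direction of each pathway list outside the members, and the 5 genes nearest in pattern to the brightest Kif1b probe set. Cell type markers named in the text, such as Dnase2b and Gja3, fall outside this rule. A gene was represented by its brightest probe set. Promoters came from RefSeq (GRCm38.p6) and Python 3.11.15 with matplotlib 3.10.9 made the figures.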

Additional observations from a re-analysis of the deposited data

How the results depend on the processing

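With 3 mice a genotype, the fit on genotype alone gave 95% intervals that held 0 for all member probe sets but Kif1b 1423994_at. With the replicate block, Kif3b 1450074_at, Kif5c 1450804_at and Kif21a also had an unadjusted p under 0.05. Dim probe sets near background limit what can be read of Kif5a and parts of Kif1b, Kif3b and Kif5c. Over all probe sets, limma called 0 after adjustment, with 450 below 0.05 without adjustment. The replicate block gave 2 and 2042, and the median signal filters of 50 and 100 left 125 and 87 at an unadjusted p under 0.05. Leaving out 1 array gave 315 to 598. The members had 1 such probe set. It was 4 with the replicate block, 0 with quantile normalization, with both signal filters, with the trended robust prior and with array weights, and 0 to 3 when 1 array was left out. The replicate block changed no adjusted call among the members. Probe sets with no overlap numbered 1398, and 350 and 255 with the filters of 50 and 100, and 2866 to 3729 when 1 array was left out; among the members these counts were 2, 1, 1 and 2 to 6. The cause was not tested, other than that fewer probe sets or arrays enter these counts.

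Of 262 member values under other settings that kept all arrays, 255 kept their direction. The direction turned for Kif1b 1423995_at in linear signal (0.989 signal units), for Kif1b 1451762_a_at (0.053), Kif5a 1427635_at (−0.019), Klc1 1417005_at (0.00086) and Kif3a 1449841_at (0.0018) with array weights, and for Kif5a 1427635_at (−0.0095) and Kif5b 1418431_at (−0.012) with median centring. With each gene taken as the mean over its probe sets, the median of the kinesin-2 list was 0.025 and that of the other transport and ciliary kinesins −0.0093. When 1 array was left out, 12 of 29 member probe sets kept their direction every time. The others ranged as follows on the log2 scale. Kif1b read −0.22 to 0.27 for 1455182_at, −0.10 to 0.37 for 1425270_at, −0.38 to 0.30 for 1423995_at, −0.29 to 0.14 for 1451762_a_at. Kif1a read −0.26 to 0.18 for 1450108_at. Kif13a read −0.25 to 0.11 for 1451890_at. Kif5a read −0.075 to 0.14 for 1427635_at. Kif5b read −0.13 to 0.083 for 1418428_at, −0.14 to 0.30 for 1418430_at, −0.14 to 0.13 for 1418431_at, −0.42 to 0.14 for 1418429_at, −0.27 to 0.45 for 1418427_at. Klc1 read −0.15 to 0.079 for 1417005_at, −0.22 to 0.12 for 1428881_at. Kif3a read −0.15 to 0.17 for 1449841_at, −0.086 to 0.28 for 1420375_at. Kif3b read −0.18 to 0.0043 for 1420987_at.

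The Pax6 difference ranged from −0.53 to −0.10, and that of Kif1b 1423994_at against the other Kif1b probe sets from −0.41 to −0.24, when 1 array was left out.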
